A study of Homo sapiens with 4 samples.

Results

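The histone genes on the array were examined as a family, by class and by gene cluster, in GIST-T1 cells, an established line of human gastrointestinal stromal tumor cells. The members were all noncontrol probes whose gene name in the array's annotation begins with HIST1H, HIST2H, HIST3H, HIST4H, H2AF, H3F or H1F, which gave 107 of 50599 probes and 85 of 36337 gene names. Of these, 84 probes of 70 genes are counted as replication-dependent histones (the HIST names), 22 probes of 14 genes as replacement histones (the H2AF, H3F and H1F names), and 1 probe, H1FX-AS1, measures an RNA antisense to a linker histone gene. The HIST names include HIST1H2APS1 and HIST2H2BA, which are annotated as noncoding RNAs and had no tested probe. The question was how each class differed between cells that received a miR-34a mimic, a synthetic RNA that acts as the mature miRNA, and cells that received a negative control mimic. For each transfection, 3000000 cells were electroporated with 100 pmol of RNA, total RNA was taken at 48 h, and 100 ng of it was Cy3-labeled for a one-color Agilent array, with 2 arrays per condition. The labels do not say that the arrays of a condition came from separate transfections, so the p-values measure only the spread between these arrays, which may be technical. Both conditions used the same cell line, so the values describe 1 line.

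Histones are the proteins around which DNA is wound. An octamer of H2A, H2B, H3 and H4 makes the nucleosome core, and H1 binds the DNA that links nucleosomes. Replication-dependent histone genes lie in clusters, mostly lack introns and are transcribed in S phase, and their mRNAs end in a conserved stem-loop, bound by the protein SLBP, instead of a poly(A) tail. Most replacement histone genes lie singly, have ordinary polyadenylated mRNAs and are expressed throughout the cell cycle. The groups here were set by gene name, and their members were not checked for these traits. Labeling kits of the kind used here start cDNA synthesis at poly(A), and the part this plays in the signal of mRNAs without a tail was not tested.

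The stem-loop could be read in the probes themselves. The letters CTTTTNAG with GGCN before and NGCC after them, searched on the mRNA strand, occurred in 7 of the 50599 probes on the array, and 6 of these measure replication-dependent histone genes. They are shown, 5′ to 3′, because they are the mark that sets these mRNAs apart from other mRNAs, with the stem-loop in capitals and the neighboring bases of the probe in lower case.
HIST1H2AI: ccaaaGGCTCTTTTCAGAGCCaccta
HIST1H2BE: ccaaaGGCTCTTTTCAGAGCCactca
HIST1H2BF: ccaaaGGCTCTTTTAAGAGCCa
HIST1H3H: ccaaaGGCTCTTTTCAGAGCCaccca
HIST2H3A: caaaaGGCTCTTTTCAGAGCCacc
HIST1H4K: caaaaGGCCCTTTTTAGGGCCcc
Of the replacement histone probes, 0 of 22 held these letters.

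The mature miR-34a that the mimic supplies is shown with its seed, bases 2 to 8, in capitals (RefSeq).
hsa-miR-34a-5p: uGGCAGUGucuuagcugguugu
The DNA letters that pair with this seed, CACTGCC, occurred on the mRNA strand in 0 of the 107 histone probes and in 0.435% of all probes. The letters ACTGCCA, which pair with bases 2 to 7 and are followed by A, occurred in 1 histone probe, that of HIST1H3D, and in 0.393% of all probes. A probe covers 60 bases of an mRNA, so these counts say nothing of the rest of the mRNA.

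Of the member probes, 85 (of 71 genes) could be tested because both arrays of 1 condition or more detected them well above background, among 21474 such probes on the array. These were 70 probes of 60 replication-dependent genes, 14 probes of 10 replacement genes and the antisense probe, and 82 of them passed this level on all 4 arrays. The other 22 member probes were not tested. With no tested probe were the genes H1F0, H1FOO, H2AFB2, H2AFB3, HIST1H1A, HIST1H1B, HIST1H1T, HIST1H2BA, HIST1H2BE, HIST1H4G, HIST4H4, HIST1H2APS1, HIST2H2BA and HIST2H4A. Values are log2 processed signals relative to the 75th percentile of the same array, and differences are miR-34a mimic minus negative control, with the standard error of the limma fit over 2 arrays against 2. Where a gene had several tested probes, the probe with the highest mean signal stands for it. Signal strength decided which genes are named, but signals of different probes are not compared as levels. Over all tested probes the median difference was -0.01, so a difference given here is also close to a difference from the typical probe.

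The 4 arrays shared 1 slide and 1 scan, and 41.8% to 45.2% of the probes were well above background on each. The markers of the cell line, KIT, ANO1 and ETV1, were detected on all 4 arrays. Of 6 markers of other cell types, EPCAM and DES were well above background on all 4 arrays, CDH5 and PTPRC on at most 2, and PECAM1 and MYH11 on 0. Between conditions, CDH5 differed by -0.97, EPCAM by 0.41 and DES by -0.39. At the probe with the highest mean signal of each gene, all 5 markers of the cell line had both mimic arrays below both controls. This held for 30.7% of all tested gene names. Over the 11 tested probes of these markers, 9 lay below without overlap and 2 above, with differences up to 0.29. At these brightest probes KIT differed by -0.70 ± 0.06 (1.62-fold lower, adjusted p = 0.0948 by limma), and the other 4 genes by -0.23 to -0.06. The part of these markers in the histone values was not tested. The SD of the log2 difference between replicate arrays, over the tested probes, was 0.337 for the mimic and 0.29 for the negative control. With these arrays, exact permutation (two-sided) of a probe has a smallest possible p of 0.33.

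Replication-dependent histone transcripts were lower after the mimic in nearly every gene that could be measured, and replacement histone transcripts were spread around 0. Of 60 replication-dependent genes, 59 had a negative difference, with a median of -0.45 (1.37-fold lower) and quartiles of -0.58 and -0.28. Of 10 replacement genes, 6 had a negative and 4 a positive difference, with a median of -0.05. Of all 16192 tested gene names, 8309 had a negative difference, and the median was -0.01, with quartiles of -0.17 and 0.14. Set against the mean of the negative controls (the controls, in short), the replication-dependent median was -0.38 on mimic array 1 and -0.41 on mimic array 2, and the replacement median was -0.07 and -0.01. When the arrays were centred on the median of all probes instead, which moved the median of all tested probes by 0.38, the replication-dependent median was -0.06 and the replacement median turned to 0.35. Relative to all tested probes these are -0.442 and -0.0378. Over 10 settings that used all 4 arrays, the replication-dependent median relative to all tested probes lay between -0.443 and -0.366.

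Both mimic arrays were below both controls for 64 of the 70 tested replication-dependent probes (91.4%), against 30.1% of all tested probes. Among the replacement probes this held for 4, and both mimic arrays lay above both controls for 5, against 30.4% of all tested probes. Lower by more than 1.5-fold, the threshold of the study, were 16 replication-dependent probes (22.9%) and 1 replacement probe, against 4.8% of all tested probes. Higher by more than 1.5-fold was 1 histone probe, in HIST1H2AC, against 2.11% of all tested probes. Over all tested probes the threshold was passed by 1030 lower and 453 higher probes, by 775 and 702 after quantile normalization, and by 353 and 3877 when centred on the median of all probes. Of the 70 replication-dependent probes, 1, that of HIST1H2AA, passed the filter on dim probes without being well above background on all 4 arrays. So did the replacement probe lower by more than 1.5-fold, that of H1FNT. Both passed it through the controls, where their signals were higher.

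By limma with Benjamini-Hochberg adjustment over all tested probes, 0 of 85 histone probes and 0% of all tested probes had an adjusted p under 0.05, and the smallest adjusted p, 0.0948, was that of several histone probes. At an unadjusted p under 0.05, 57 histone probes were lower, against 11.6% of all tested probes, and 2 were higher, against 12.7%. When limma was allowed a trend of variance with signal, 48 histone probes were lower at an adjusted p under 0.05, against 3.6% of all tested probes, and 1 was higher, against 3.81%. All 48 were replication-dependent, and the 1 higher probe was one of H3F3A. After normexp background correction 32 histone probes, all lower, passed by limma, against 4.08% of all tested probes. The t-test named in the methods passed 51 histone probes unadjusted, against 19.6% of all tested probes, and 0 after Benjamini-Hochberg adjustment.

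**Figure D1:**
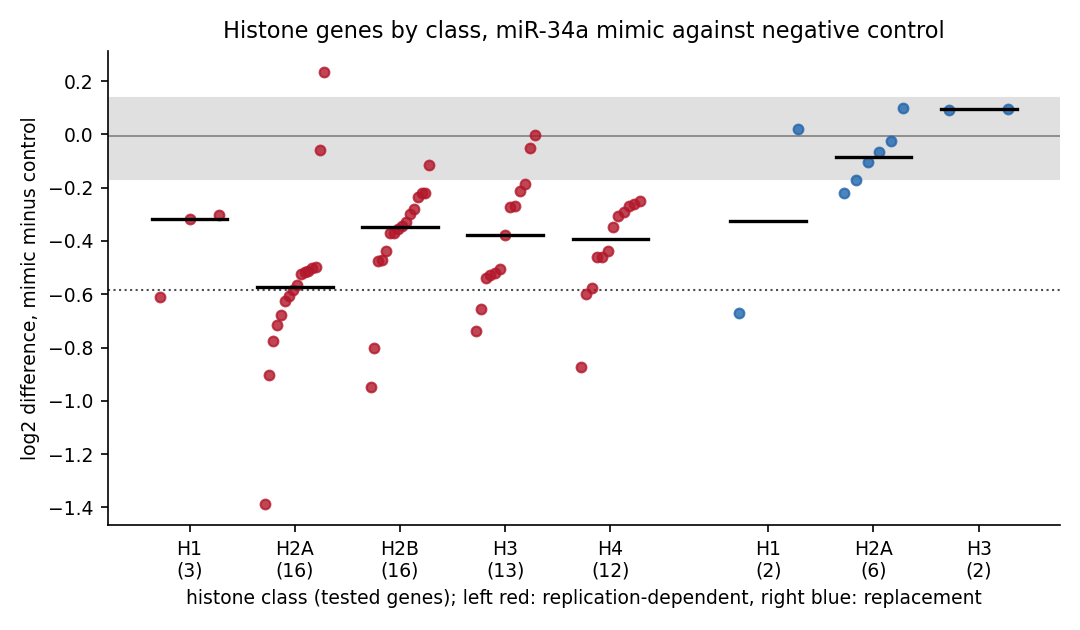
Each point is the log2 difference (miR-34a mimic minus negative control, vertical axis) of 1 tested histone gene, by class on the horizontal axis, with replication-dependent genes in red and replacement genes in blue. Black bars are class medians, the gray band and line are the quartiles and median of all 16192 tested gene names, and the dotted line is 1.5-fold lower. The replication-dependent medians lie between -0.57 and -0.32, below the gray band; centred on the median of all probes, which shifts every point and the band up together by about 0.38, the medians of H1, H2B and H3 were above 0 but still below the band's median.

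H2A, which forms a dimer with H2B in the nucleosome core, had the lowest class median among the replication-dependent genes, -0.57 over 16 genes. Of these, 15 had a negative difference and 7 (43.8%) were lower by more than 1.5-fold. Over all tested gene names, 8309 of 16192 had a negative difference and 4.83% were lower by more than 1.5-fold. The 7 include HIST1H2AA, which passed the filter on dim probes through the controls. In HIST2H2AB the signal was 4.14 and 4.51 on the mimic arrays and 5.13 and 5.07 in the controls. HIST1H2AL gave -0.33 and -0.37 against 0.37 and 0.28. In both genes the mimic arrays lay below the controls without overlap, with differences of -0.78 ± 0.15 (SE) and -0.68 ± 0.06 and adjusted p of 0.116 and 0.0948 by limma. HIST1H2AE gave 2.95 and 2.01 against 3.39 and 3.38, and HIST1H2AJ gave 4.71 and 4.23 against 5.18 and 5.18. Here the mimic arrays were both low but apart from each other, mimic array 2 being the lower. The differences were -0.90 ± 0.36 and -0.72 ± 0.19, and without mimic array 2 they were -0.43 and -0.48. The lowest value of the family, -1.39 ± 0.93 in HIST1H2AA, a variant of H2A chiefly known from the testis, rested on mimic array 2 as well, where the signal of -4.17 was not well above background, against -1.69 on mimic array 1 and -1.65 and -1.44 in the controls. Among the H2A genes, HIST1H2AM had the highest mean signal, with 4.93 and 4.80 against 5.41 and 5.35, a difference of -0.51 ± 0.08. Most of the other H2A genes lay close to it, and HIST1H2AI, HIST1H2AG and HIST2H2AC differed by -0.63, -0.61 and -0.58. An exception was HIST2H2AA4 at -0.06 ± 0.05.

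For H2B, the partner of H2A, all 16 genes had a negative difference. The median was -0.35 (0.04 when centred on the median of all probes, against the shift of 0.38). Lower by more than 1.5-fold were 2 genes (12.5%), against 4.83% of all tested gene names. HIST1H2BF, whose probe holds the stem-loop shown above, gave -1.22 and -1.67 on the mimic arrays and -0.48 and -0.51 in the controls. HIST1H2BN gave 0.16 and 0.15 against 0.62 and 0.63. In both, the mimic arrays were lower without overlap, by -0.95 ± 0.18 and -0.47 ± 0.05, and HIST1H2BF was at -0.55, under 1.5-fold, after normexp correction. HIST1H2BD gave 2.29 and 1.48 against 2.71 and 2.66, and HIST1H2BC gave 1.497 and 1.04 against 1.72 and 1.77. Mimic array 2 was again the lower, and without it the differences of -0.80 and -0.47 became -0.40 and -0.24. The H2B gene with the highest mean signal, HIST1H2BL, gave 4.29 and 4.21 against 4.63 and 4.59, a difference of -0.35 ± 0.06. The smallest difference of the class was -0.12 ± 0.06, in HIST1H2BM.

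For H3, which with H4 forms the tetramer at the center of the nucleosome, all 13 genes had a negative difference. The median was -0.38 (0.01 when centred on the median of all probes). Lower by more than 1.5-fold were 2 genes (15.4%), against 4.83% of all tested gene names. HIST1H3J gave 2.72 and 2.48 on the mimic arrays and 3.41 and 3.26 in the controls. HIST1H3H gave 3.83 and 4.04 against 4.60 and 4.57. Both were lower without overlap, by -0.74 ± 0.12 and -0.66 ± 0.10, and the second probe of HIST1H3H, which holds the stem-loop, differed by -0.56 ± 0.06. HIST1H3F gave 4.82 and 4.76 against 5.35 and 5.30, and HIST1H3D gave 6.34 and 6.26 against 6.83 and 6.82. Their differences, -0.54 ± 0.06 and -0.53 ± 0.06, were nearly the same on both mimic arrays. At the other end, HIST1H3C differed by -0.05 ± 0.05, and HIST3H3, which had the highest mean signal of the class and is chiefly known from the testis, gave 7.29 and 7.39 against 7.34 and 7.35, so that its arrays overlapped. The difference of HIST3H3, -0.00 ± 0.06, turned positive in 5 other settings. In HIST1H3I it was mimic array 1 that was low, at -0.06, against 1.07 on mimic array 2 and 0.94 and 1.11 in the controls.

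For H4 all 12 genes had a negative difference and the median was -0.39. Lower by more than 1.5-fold were 2 genes (16.7%), against 4.83% of all tested gene names. HIST1H4A gave 3.15 and 3.61 on the mimic arrays and 3.99 and 3.96 in the controls, and HIST1H4D gave 4.07 and 4.04 against 4.75 and 4.51. HIST2H4B gave 3.63 and 3.50 against 3.98 and 4.07. In each of these the mimic arrays were lower without overlap, by -0.60 ± 0.18, -0.58 ± 0.11 and -0.46 ± 0.08. Mimic array 1 was the lower in HIST1H4A, whose difference was -0.37 without it. HIST1H4I gave 3.39 and 2.22 against 3.66 and 3.69, and its difference of -0.87 ± 0.44 was -0.29 without mimic array 2. HIST1H4C, the H4 gene with the highest mean signal, gave 9.79 and 9.70 against 10.03 and 10.00, a difference of -0.27 ± 0.06. HIST1H4L differed by -0.25 ± 0.07 at its brighter probe, with 7.84 and 7.95 against 8.16 and 8.13, and by -0.64 ± 0.08 at its dimmer probe, so that its probes lay on both sides of 1.5-fold.

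For the linker histone H1, 3 of 6 replication-dependent genes could be tested, and all had a negative difference, with a median of -0.32. HIST1H1D gave 4.08 and 3.96 on the mimic arrays against 4.63 and 4.63. It was the 1 of these 3 genes lower by more than 1.5-fold, against 4.83% of all tested gene names. Its difference was -0.61 ± 0.07, with an adjusted p of 0.0948 by limma. HIST1H1E gave 4.80 and 4.75 against 5.10 and 5.09, and HIST1H1C, which had the highest mean signal of the class, 5.82 and 5.74 against 6.12 and 6.05. The groups did not overlap in any of the 3 genes, and the differences of the last pair were -0.32 ± 0.06 and -0.30 ± 0.07. When the arrays were centred on the median of all probes, HIST1H1E, HIST1H1C and the class median turned positive, at 0.07, 0.09 and 0.07, below the 0.38 by which all tested probes moved.

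**Figure D2:**
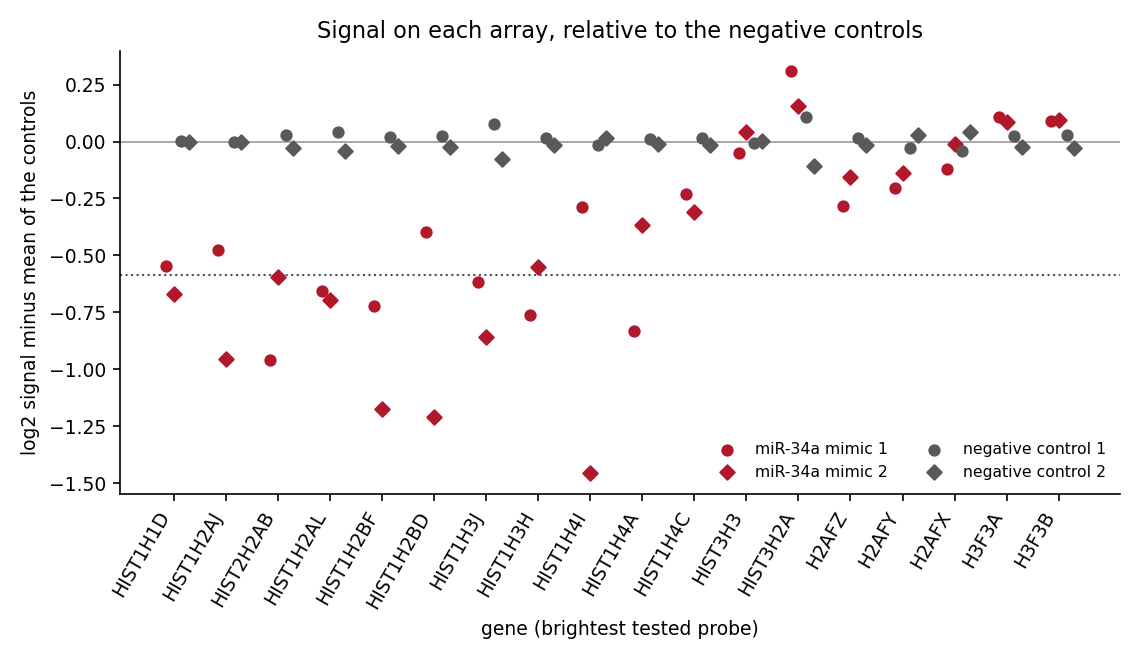
Points are the log2 signal on each array minus the mean of the negative control arrays (vertical axis) for 18 histone genes (horizontal axis), with mimic arrays in red, negative control arrays in gray, circles for array 1 and diamonds for array 2. The dotted line is 1.5-fold lower. Mimic array 2 lies far below mimic array 1 in HIST1H4I (2.22 against 3.39 in log2 signal) and HIST1H2BD (1.48 against 2.29), while H3F3A and H3F3B lie slightly above the negative controls on both mimic arrays.

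The mimic arrays differed from each other by more than 0.5 in 6 of the 70 replication-dependent probes, against 8.36% of all tested probes, and the negative control arrays did so in 0, against 5.01%. The 6 were HIST1H2AA, HIST1H2AE, HIST1H2BD, HIST1H3A and HIST1H4I, with mimic array 2 lower, and HIST1H3I, with mimic array 1 lower. In HIST1H3A the mimic arrays gave 3.64 and 3.06 and the negative control arrays 3.55 and 3.53, so that mimic array 1 lay above both controls. Without mimic array 2, the replication-dependent median was -0.38 and 12 histone probes were lower by more than 1.5-fold. Without mimic array 1 these were -0.41 and 19. Over all 21474 tested probes, leaving out each array in turn gave 990 to 1421 lower by more than 1.5-fold.

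By gene cluster, the HIST1 genes on chromosome 6 had a median difference of -0.47, with a negative difference in all 49 tested genes. The HIST2 genes on chromosome 1 had a median of -0.40, with a negative difference in all 8. Over the whole array, 8309 of 16192 tested gene names had a negative difference. The HIST1 probes fall into 2 parts in the array's annotation (hg19), from 25726563 to 26285556 and from 27100318 to 27861647. The median was -0.38 over 29 genes in the first part and -0.50 over 20 genes in the second, which holds 7 of the 12 tested H2A genes of HIST1. No test of the difference between the parts was made. Class for class, H2A genes had a median of -0.59 in HIST1 (12 genes) and -0.58 in HIST2 (3 genes), H2B genes of -0.35 (13 genes) and -0.28 (2 genes), and H3 genes of -0.45 (10 genes) and -0.36 (2 genes). The H4 genes had a median of -0.35 in HIST1 (11 genes), and the 1 tested H4 gene of HIST2 differed by -0.46. The H1 genes all lie in HIST1. These differences between clusters were not tested.

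The HIST3 genes, a small cluster also on chromosome 1, did not share a direction. HIST3H2A gave -2.02 and -2.18 on the mimic arrays and -2.23 and -2.44 in the controls. It was the only replication-dependent gene whose representative probe was higher after the mimic, by 0.23 ± 0.11 with an adjusted p of 0.298 by limma. The difference was 0.13 without negative control array 2, 0.16 without mimic array 1 and 0.05 after normexp correction. HIST3H2BB differed by -0.44 ± 0.15 and HIST3H3, given above, by -0.00.

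Among the replacement forms of H2A, 6 genes could be tested, with differences between -0.22 and 0.10. H2AFZ, the H2A.Z found at promoters, gave 6.46 and 6.59 on the mimic arrays and 6.76 and 6.73 in the controls. H2AFY, which encodes macroH2A1, a variant with a large extra domain, gave 6.57 and 6.63 against 6.74 and 6.80. Both lay lower without overlap, by -0.22 ± 0.07 and -0.17 ± 0.06, with adjusted p of 0.194 and 0.214 by limma. H2AFV, a second H2A.Z gene, gave 5.84 and 5.87 against 5.90 and 5.86, and H2AFY2, which encodes macroH2A2, gave 0.20 and 0.03 against 0.05 and -0.02. H2AFX, whose protein is phosphorylated at DNA breaks, gave 2.52 and 2.63 against 2.60 and 2.68. In these 3 genes the arrays overlapped, and the differences were -0.03 ± 0.06, 0.10 ± 0.09 and -0.07 ± 0.07. H2AFJ gave 3.53 and 3.51 against 3.69 and 3.56, without overlap, a difference of -0.10 ± 0.07. When the arrays were centred on the median of all probes, the 5 negative values of these genes turned positive, from 0.17 in H2AFZ to 0.37 in H2AFV, none above the 0.38 by which all tested probes moved.

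The H3.3 genes, H3F3A and H3F3B, which encode the same protein, stood on the other side of 0. H3F3A gave 7.46 and 7.43 on the mimic arrays and 7.37 and 7.32 in the controls. H3F3B gave 7.70 and 7.71 against 7.64 and 7.59. Both mimic arrays were above both negative control arrays in each gene, by 0.10 ± 0.06 and 0.09 ± 0.06, with adjusted p of 0.356 and 0.373 by limma. The other 3 probes of H3F3A differed by 0.11, 0.13 and 0.19, and a second probe of H3F3B, which had no usable value on negative control array 1 and was fitted on 3 arrays, by 0.19. All 6 probes of the H3.3 genes were thus positive, while all 14 probes of the replication-dependent H3 genes were negative on the scale set by the 75th percentile.

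Of the replacement linker histones, H1FX gave 1.00 and 0.96 on the mimic arrays and 1.04 and 0.88 in the controls, with overlap and a difference of 0.02 ± 0.08 that turned negative when mimic array 1 or negative control array 2 was left out. H1FNT, a testis linker histone, gave -3.08 and -2.54 against -1.98 and -2.29. It was well above background on both controls and 1 mimic array, so it passed the filter on dim probes through the controls, where it was higher. Its difference of -0.67 ± 0.24, with an adjusted p of 0.21 by limma, made it the 1 replacement gene lower by more than 1.5-fold. It was -0.41 without mimic array 1, -0.52 without negative control array 1 and -0.24 after normexp correction, all under that threshold. The antisense RNA H1FX-AS1 gave -2.32 and -2.87 against -2.58 and -2.37, so that the groups overlapped.

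In 2 genes, HIST1H2AC and HIST1H2BK, probes of the same gene lay on opposite sides of 0 and more than 0.2 apart. The first 30 bases of these probes are shown to make clear which part of each transcript they read, named by their start in the annotated transcript.
HIST1H2AC at 30: tttgtttgttttctcgtgagcttaggccgc
HIST1H2AC at 88: atgtctggacgtggtaagcaaggaggcaaa
HIST1H2AC at 1100: gcattatgcaaatgcattatattttatgta
HIST1H2BK at 141: aagaagcgcaagcgcagccgcaaggagagc
HIST1H2BK at 660: ggtccattccttctctctaataatcattta
In HIST1H2AC the probe at 88 starts at the first codon and lies at chr6:26124461-26124520 (hg19, + strand), while the probe at 1100, annotated to a longer transcript, lies at chr6:26138822-26138881, downstream of the short mRNA. The coding probe gave 2.25 and 2.20 on the mimic arrays and 2.73 and 2.85 in the controls, and the probe at 30 gave -0.88 and -1.15 against -0.25 and -0.45. The distal probe gave -2.21 and -1.89 against -2.59 and -2.70. The first pair was lower without overlap, by -0.57 ± 0.07 and -0.67 ± 0.13, and the distal probe was higher without overlap, by 0.60 ± 0.14 (adjusted p = 0.135 by limma). The distal probe passed 1.5-fold on the main scale but not when mimic array 2 or negative control array 2 was left out or after normexp correction.

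HIST1H2BK had the same arrangement with smaller values. Its coding probe, at chr6:27114437-27114496 (hg19, - strand), gave 2.67 and 2.66 on the mimic arrays and 2.93 and 2.84 in the controls, a difference of -0.22 ± 0.06. Its distal probe, at chr6:27106191-27106250, gave 1.92 and 2.07 against 1.89 and 2.01, with overlap and a difference of 0.05 ± 0.09. That the coding and distal probes of these genes differ in their response was not tested.

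**Figure D3:**
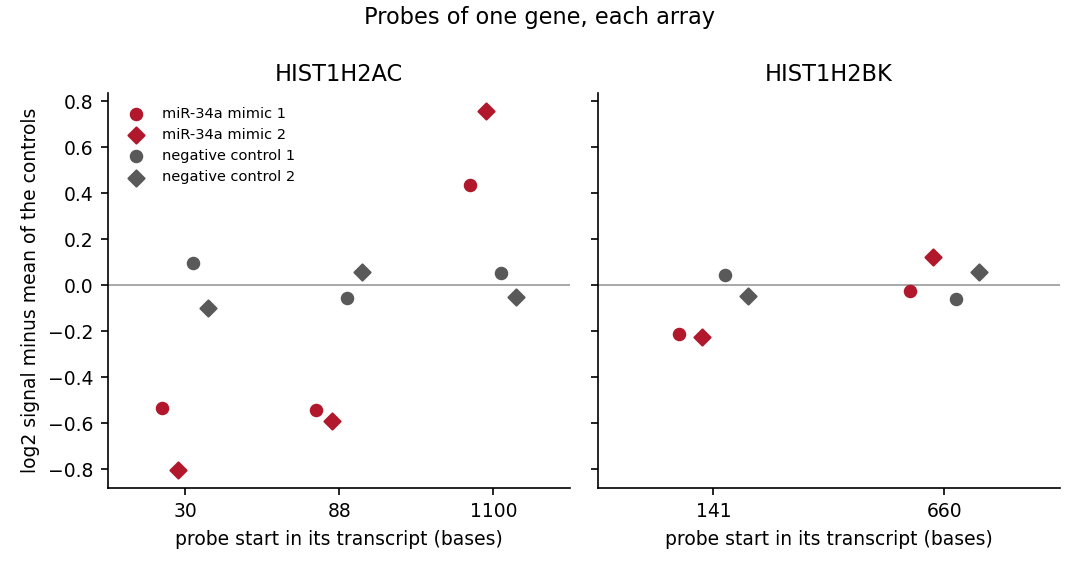
Points are the log2 signal on each array minus the mean of the negative control arrays (vertical axis) for every tested probe of HIST1H2AC (left) and HIST1H2BK (right), ordered by start in the annotated transcript (horizontal axis, not to scale). Mimic arrays are red and negative control arrays gray. In HIST1H2AC the mimic arrays lie below the controls at 30 and 88 and above them at 1100.

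Other probes of the same gene lay on the same side of 0. The probes of HIST1H4A, HIST1H3H and HIST1H4L lay on both sides of 1.5-fold, with differences of -0.60 and -0.56, -0.66 and -0.56, and -0.25 and -0.64. The 5 tested replication-dependent probes that hold the stem-loop had a median difference of -0.56, and the other 65 had a median of -0.44. Which form of the mRNA the probes with the stem-loop read was not tested. The 5 probes were those of HIST1H2BF (-0.95), HIST1H2AI (-0.63), HIST1H3H (-0.56), HIST1H4K (-0.51) and HIST2H3A (-0.51).

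Histone genes of a class are so alike that probes can share targets, which limits how far single genes can be told apart. Of the 70 tested replication-dependent probes, 12 matched a probe of another histone gene at 90% identity or more over at least 40 bases, and these were 6 H2B and 6 H4 probes. The probes were compared with each other and not with the other histone mRNAs. These counts therefore cannot show which probes read a single gene. The median difference of the 12 was -0.40, and that of the other 58 was -0.49. The 42 bases of the H4 coding sequence that 4 probes share show the extent of the likeness, with bases that differ from HIST1H4H in capitals.
HIST1H4H: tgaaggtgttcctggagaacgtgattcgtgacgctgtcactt
HIST1H4K: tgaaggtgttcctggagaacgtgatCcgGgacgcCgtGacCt
HIST1H4F: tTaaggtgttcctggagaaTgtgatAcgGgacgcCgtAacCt
HIST1H4L: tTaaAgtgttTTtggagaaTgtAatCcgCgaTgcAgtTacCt
The probes differ from HIST1H4H at 5, 7 and 12 of these bases, and their log2 differences between the conditions were -0.44 for HIST1H4H, -0.26 for HIST1H4K, -0.35 for HIST1H4F and -0.64 for HIST1H4L.

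Promoters of 76 of the 85 genes were in the RefSeq table (GRCh38.p14, 250 bases before to 50 after the start). Searched on both strands, the octamer ATTTGCAT, the letters bound by POU2F1 in H2B promoters, occurred in 77.8% of 18 replication-dependent H2B promoters and 73.3% of 15 H2A promoters, but in 9.09% of 11 H3 promoters, 0% of the H1 and H4 promoters and 1.77% of all 35116 promoters. The letters CCAAT occurred in 84.1% of the 63 replication-dependent promoters and 84.6% of the 13 replacement promoters, against 34.6% of all, and TATAAA in 66.7% and 30.8%, against 11.5%. By class, CCAAT occurred in 100% of the replication-dependent H1, H2A, H2B and H3 promoters but in 23.1% of the 13 H4 promoters. A set of H2B octamers is shown, in capitals, because these genes share it and yet span the range of the class.
HIST1H2BF: atcacctaATTTGCATaccacagg
HIST1H2BC: catacctcATTTGCATagctctgc
HIST1H2BJ: ttcaccttATTTGCATaagcgatt
HIST1H2BM: tactcctaATTTGCATaataacat
They lie at chr6:26199397-26199420 (+ strand), chr6:26124034-26124057 (- strand), chr6:27132827-27132850 (- strand) and chr6:27814966-27814989 (+ strand) in GRCh38.p14, and the genes' differences were -0.95, -0.47, -0.37 and -0.12. A match is a description of the letters and not evidence of binding.

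Genes that act on histone mRNA were near 0 as a list. Of 32 tested genes for histone mRNA transcription, 3′ end formation and decay, 23 had a negative difference, the median was -0.07, and 1 was lower by more than 1.5-fold. Over all 16192 tested gene names, 8309 had a negative difference and 4.83% were lower by more than 1.5-fold. Counted by probe, 4 of 40 in the list (10%) were lower by more than 1.5-fold, against 4.8% of all tested probes. SLBP, which binds the stem-loop, gave 4.82 and 4.91 on the mimic arrays and 4.88 and 4.92 in the controls. LSM10, a part of the U7 particle that directs cleavage, gave 4.93 and 4.97 against 4.99 and 4.94. The arrays overlapped in both, with differences of -0.03 ± 0.06 and -0.02 ± 0.06. NPAT, the coactivator of histone transcription, gave -2.38 and -1.71 against -1.83 and -2.18, and LSM11, the partner of LSM10, gave -3.05 and -2.15 against -2.14 and -2.59. Both were dim and their replicates lay far apart, with differences of -0.04 ± 0.29 and -0.24 ± 0.38. HINFP, a factor for H4 transcription, gave 0.40 and 0.47 against 0.56 and 0.51, a difference of -0.10 ± 0.06.

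The gene of that list past 1.5-fold at its brightest probe was CCNE2, a cyclin that activates CDK2 at the start of S phase. It gave -0.68 and -0.46 on the mimic arrays and 0.61 and 0.56 in the controls, a difference of -1.16 ± 0.10 (2.23-fold lower, adjusted p = 0.0948 by limma). The related CCNE1 differed by -0.10 ± 0.06.

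Histone chaperones, which carry histones and deposit them on DNA, had a median difference of -0.08 over 30 genes, of which 21 were negative and 0 passed 1.5-fold. Over all 16192 tested gene names, 8309 were negative and 4.83% were lower by more than 1.5-fold. S phase genes had a median of -0.15 over 37 genes, of which 30 were negative and 1 passed 1.5-fold. That gene was GINS3, a subunit of the complex that activates the replicative helicase, with 2.18 and 2.37 on the mimic arrays and 3.17 and 3.16 in the controls, a difference of -0.89 ± 0.09. With the variance trend, 12 of the 37 S phase genes (32.4%) were lower at an adjusted p under 0.05, against 3.96% of all tested gene names and 41 of the 60 replication-dependent histone genes (68.3%). The medians of these 3 lists turned positive when the arrays were centred on the median of all probes. Relative to all tested probes they stayed between -0.148 and -0.0429 over 10 settings that used all 4 arrays. With 1 array left out they lay between -0.162 (S phase genes without mimic array 2) and -0.0265 (chaperones without negative control array 1). In bulk RNA, fewer cells in S phase and less histone mRNA in each cell cannot be told apart.

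**Figure D4:**
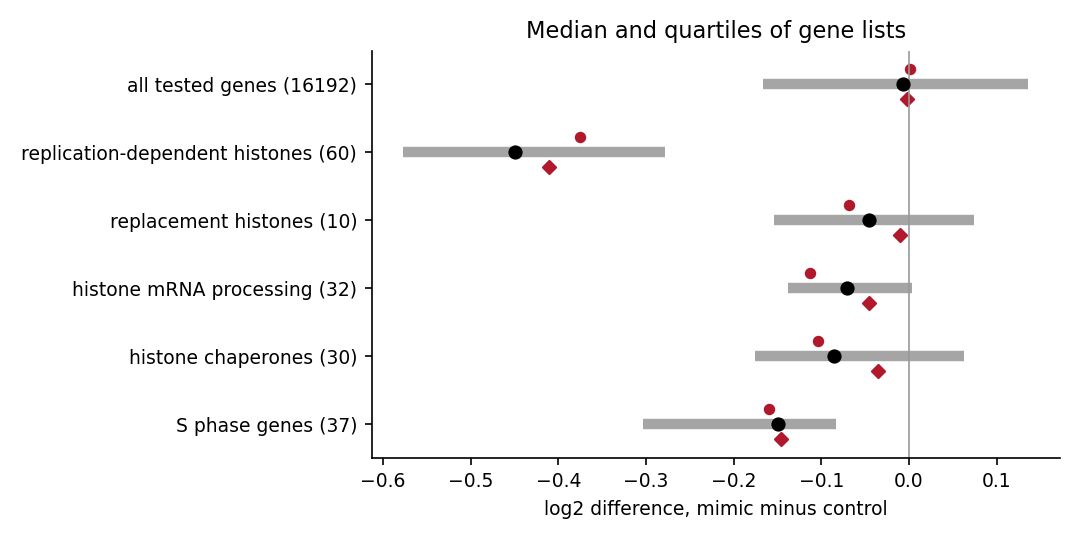
Black points are the median and gray bars the quartiles of the log2 difference (horizontal axis, miR-34a mimic minus negative control) over the tested genes of each list, with the number of genes in brackets. Red circles and diamonds are the medians of mimic arrays 1 and 2 against the mean of the negative controls. The replication-dependent histones have a median of -0.45 and the S phase genes of -0.15, on the scale where all tested genes have a median of -0.01.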

How the data were processed

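The authors deposited the intensity of every spot of 4 one-color arrays, as written by Agilent Feature Extraction 10.7.3.1 (a processed signal, from which background and spatial trends had been removed, besides the mean signal, local background and flags), and a series table that held the same processed intensity to within 0.496%. The deposited intensity was not scaled between arrays. Samples were grouped by their labels, with 2 arrays per condition.

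Control and outlier-flagged spots were left out, 0 spots were saturated, spots of a probe were averaged, and log2 signals were shifted by the array's 75th percentile. Differences were fitted with limma 3.58.1 (lmFit, eBayes; R 4.3.3), adjusted by Benjamini-Hochberg over 21474 probes. The number of arrays limits the precision. Slide and scan were shared by all arrays and could not be blocks. On simulated data, 118 of 200 changed probes among 21453 (59%) and 6 unchanged ones were called. On the real arrays limma called 0 of 21474 probes, so the 59% does not estimate what share of real changes was found.

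The members, the gene lists and the tests were chosen with earlier results of these data known. Named are every replacement histone, in each replication-dependent class the 4 largest decreases among genes well above background on all 4 arrays and the gene with the highest mean signal, each replication-dependent gene higher after the mimic, genes whose probes disagree (by more than 0.2 around 0, or around 1.5-fold), SLBP, NPAT, LSM10, LSM11, HINFP, and genes of the other lists past 1.5-fold. The other histone genes given, such as those at the ends of a class or with replicates far apart, were chosen after their values were seen. Alternatives were normexp (offset 50), quantile normalization, scaling to detected probes or to the median of all probes, other filters on dim probes, the deposited table, the mean over a gene's probes, a variance trend, the t-test of the methods, the replicate number as a block, and leaving out each array. Gene names and positions (hg19) were taken from the files, and sequences come from the array files and RefSeq. Protein sequences were not used here.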

Additional observations from a re-analysis of the deposited data

How the results depend on the processing

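Of 263 counts and medians recomputed, 214 kept their direction and stayed within 1.5 times the main count, or for a median within the spread between replicates. Of the others, 41 moved beyond these limits and 8 reversed direction. Relative to the median of all tested probes, the replication-dependent median stayed between -0.443 and -0.366 over 10 settings that used all 4 arrays. The replacement median stayed between -0.0437 and 0.0147 in these settings, and was -0.0698 without mimic array 2. After normexp, 32 histone probes passed the adjusted threshold, 9 were lower and 0 higher by more than 1.5-fold (185 and 68 over all tested probes), and the medians were -0.376 for replication-dependent genes, -0.406 for HIST1 and -0.317 for HIST2, with HIST3H3 at 0.0086. After quantile normalization 702 probes were higher, the medians of H1, H3 and HIST2 were -0.276, -0.289 and -0.337, H2AFV was at 0.048 and HIST3H3 at 0.075. Centred on the median of all probes, 1 histone probe was lower and 3 higher (353 and 3877 over all). Both mimic arrays were below the controls in 4 histone probes. No share over all tested probes stands beside this count, and the scaling moved those probes up by 0.384, so the count is not a result about the histones. With this centring the medians were -0.058 for replication-dependent genes, 0.346 for replacement genes, 0.074 for H1, -0.183 for H2A, 0.043 for H2B, 0.013 for H3 and -0.0016 for H4. They were -0.079 for HIST1, -0.011 for HIST2, 0.388 for HIST3, 0.321 for histone mRNA processing, 0.307 for chaperones and 0.242 for S phase genes. There H2AFJ was at 0.289, H2AFV at 0.366, H2AFX at 0.326, H2AFY at 0.221, H2AFZ at 0.172, HIST1H1C at 0.087, HIST1H1E at 0.074, HIST1H2BK at 0.173, HIST1H2BL at 0.038, HIST1H4C at 0.123, HIST1H4L at 0.141 and HIST3H3 at 0.388, because this scaling moved all tested probes by 0.384.

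With no filter, 2 histone probes were higher, 6823 and 2070 of all probes were lower and higher, and H1 and HIST2 were at -0.386 and -0.281. With all 4 arrays required the counts over all probes were 512 and 285, and with at least 1 array 2628 and 789, with H1 at -0.463. A variance trend passed 49 histone probes, against 7.41% of all tested probes, and the unadjusted t-test of the methods 51, against 19.6%. Leaving out each array in turn gave 12 to 20 histone probes lower and 0 to 1 higher, against 990 to 1421 and 527 to 567 over all tested probes. The medians were then -0.438 to -0.375 for replication-dependent genes, -0.457 to -0.381 for HIST1, -0.113 to -0.041 for histone mRNA processing and -0.104 to -0.032 for chaperones. H1FX ranged from -0.059 (without negative control array 2) to 0.1003 and was at -0.00025 without mimic array 1, and HIST3H3 ranged from -0.051 to 0.044 (without mimic array 1) and was at 0.0006 without negative control array 2. The cause of these changes, other than that of the centring, was not tested.

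The replicate numbers did not pair the arrays (correlation of same-numbered deviations -0.0276). With the replicate number as a block, 0 histone probes passed the adjusted threshold, and 17 were lower and 1 higher by more than 1.5-fold, as without the block.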

Other observations

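HIST1H1B, a linker histone gene that did not pass the filter on dim probes, gave -5.39 and -5.41 on the mimic arrays and -3.56 and -2.91 in the controls, and was well above background on 1 array. HIST1H4G, also not tested, gave -3.72 and -4.12 against -2.88 and -3.60. Not all untested member probes were lower. The probe of HIST2H2BF at 1748 of its transcript gave -4.26 and -4.76 against -5.39 and -5.48, and was well above background on 0 arrays. Such dim signals do not bear on the direction of the tested genes. SYMPK, a scaffold of the complex that cleaves histone pre-mRNA, was the most positive gene of the histone mRNA processing list at 0.37 ± 0.05 (adjusted p = 0.0966 by limma), with 4.51 and 4.49 on the mimic arrays and 4.15 and 4.11 in the controls. Among the chaperones, UBN1 and NAP1L4 were the most positive, at 0.31 ± 0.07 and 0.22 ± 0.05, and DAXX and CHAF1B the most negative, at -0.30 ± 0.06 and -0.28 ± 0.06.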
